A study of Homo sapiens with 11 samples.

Results

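Antisense RNAs are transcripts read from the DNA strand opposite a known gene, and most are long and carry no protein. This account covers the antisense RNAs that passed a minimum mean level in MDA-MB-468 cells treated with tumour necrosis factor (TNF), with apigenin, or with both. The members were the probe sets whose array annotation gives exactly 1 gene symbol ending in -AS and a number, with a mean of at least 3 on the log2 scale over all 11 arrays. Where a gene had several such probe sets, the one with the highest mean was used. The rule kept 176 of 825 antisense RNAs with a probe set of their own, among 22395 genes in all, and since members were chosen by their mean level, that level is described here without a test. The share of antisense RNAs at or above 3 was 21.3%, against 52.7% of all genes. The members just above the threshold were NDUFB2-AS1 at a mean of 3.006 and ZNF687-AS1 at 3.002, and just below it lay RASAL2-AS1 at 2.996 and BCAR3-AS1 at 2.986.

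MDA-MB-468 is an established human breast cancer line of epithelial origin that lacks hormone receptors. Cells were exposed for 24 h to TNF at 40 ng/ml plus apigenin at 40 µM (3 arrays), to apigenin alone at 40 µM (2 arrays), to TNF alone at 40 ng/ml (3 arrays), or to neither (control, 3 arrays), and total RNA was hybridised to Human Gene 2.1 ST arrays. TNF is an inflammatory cytokine that acts through NF-kB, and apigenin is a plant flavone. All groups share the same line and medium, and the labels do not say whether replicate cultures were grown separately, so the p-values rest on differences among these arrays alone, and those may be technical in part.

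Antisense RNAs fall into kinds by where they start. Some start close to the start of their sense gene and run away from it, so that both are made from a shared promoter region, and such RNAs are often short-lived substrates of the nuclear RNA exosome. Others start inside or beyond the far end of the sense gene and overlap its transcript, where they can affect its splicing, stability or transcription. HIF1A-AS2, which lies opposite the far part of HIF1A, is known as a transcript that accumulates under low oxygen in several tumours, and AFAP1-AS1 and DLGAP1-AS2 have been studied in carcinoma cells.

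The labelled cell type was checked by its markers, and the lists overlapped in part. All 7 epithelial markers had means of at least 3, from 4.18 to 10.79 for EGFR. Their median was 8.07, against 2.07 to 2.81 for the other lists. Means under 3 were found for 4 of 6 macrophage and 4 of 6 T and B cell markers. They were also found for 4 of 5 fibroblast and 2 of 4 endothelial markers. The macrophage marker CD68, at 5.32, lay above the lowest epithelial marker. CSF1R, with group means of 4.15 to 4.48, lay near that lowest marker. The highest of the other lists were KDR at 3.76, CD8A at 3.37 and COL1A1 at 3.34. Array apigenin 1 stood apart, with a median of 3.89 over the tested genes, against 4.08 to 4.32 on the other 10 arrays, and the median change of all genes in apigenin against control was -0.18 on the log2 scale. CXCL8, a chemokine induced by TNF, was 4.70 higher on the log2 scale in TNF than in control arrays (limma, adjusted p = 2.95e-08). CYP1A1, a target of the aryl hydrocarbon receptor to which flavones can bind, was 1.73 higher in apigenin than in control arrays (adjusted p = 0.00236) and changed by -0.02 in TNF plus apigenin against TNF (adjusted p = 0.992).

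The means of the members had a median of 3.58 on the log2 scale with quartiles of 3.27 and 4.04, with the minimum of 3 set by the rule. A mean under 4 was found for 128 members and a mean of 5 or more for 17. The 5 highest means belonged to HNRNPU-AS1 at 7.48, AFAP1-AS1 at 7.35, ZNF667-AS1 at 6.98, IGFL2-AS1 at 6.82 and DLGAP1-AS2 at 6.57. RefSeq lists HNRNPU-AS1 as an older name of HNRNPU itself, a nuclear RNA-binding protein, so that probe set may not measure an antisense transcript. Levels of different probe sets are given to describe the range only, since probe sets differ in brightness. The spread between arrays of a group, as the median residual SD, was 0.27 for members and 0.25 for all genes tested.

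A sense gene with a probe set of its own was found for 160 members, and 146 of these genes were tested. RefSeq (GRCh38.p14) allowed 129 members to be placed against their sense gene by transcription starts. In 44 the starts lay on opposite strands within 1000 bases of each other, in 83 they lay farther apart on opposite strands, FAM131B-AS2 started on the same strand as its named partner, and HNRNPU-AS1 could not be told from its partner. Of the 9 antisense RNAs called in any comparison below, 7 could be placed, and 4 of the 7 had starts within 1000 bases of the sense start.

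The promoter windows of these 4 are printed first because each also holds the start of the sense gene, which runs the other way. The windows cover 250 bases before and 50 bases after the start of the antisense RNA, and are read 5′ to 3′ on its strand from RefSeq, GRCh38.p14. The positions are chr13:79406059-79406358 for RBM26-AS1, chr5:181260962-181261261 for TRIM52-AS1 and chrX:46545240-46545539 for ZNF674-AS1, all on the plus strand, and chr19:44113134-44113433 on the minus strand for ZNF225-AS1. Capitals mark the bases between the sense start and the antisense start, which are 54 bases apart for RBM26-AS1, 69 for TRIM52-AS1, 69 for ZNF674-AS1 and 216 for ZNF225-AS1.
RBM26-AS1: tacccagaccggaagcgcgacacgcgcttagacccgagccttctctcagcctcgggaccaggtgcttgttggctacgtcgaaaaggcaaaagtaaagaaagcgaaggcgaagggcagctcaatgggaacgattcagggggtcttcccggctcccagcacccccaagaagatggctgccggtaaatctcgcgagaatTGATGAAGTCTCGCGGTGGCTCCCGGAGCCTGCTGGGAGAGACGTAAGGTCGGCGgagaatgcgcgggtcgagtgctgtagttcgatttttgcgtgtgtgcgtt
TRIM52-AS1: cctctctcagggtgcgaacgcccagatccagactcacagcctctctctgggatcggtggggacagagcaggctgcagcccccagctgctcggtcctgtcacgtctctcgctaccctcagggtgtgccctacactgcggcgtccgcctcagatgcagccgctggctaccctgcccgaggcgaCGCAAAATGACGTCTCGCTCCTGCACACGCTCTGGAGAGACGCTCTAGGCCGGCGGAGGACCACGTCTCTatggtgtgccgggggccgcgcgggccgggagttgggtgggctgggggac
ZNF674-AS1: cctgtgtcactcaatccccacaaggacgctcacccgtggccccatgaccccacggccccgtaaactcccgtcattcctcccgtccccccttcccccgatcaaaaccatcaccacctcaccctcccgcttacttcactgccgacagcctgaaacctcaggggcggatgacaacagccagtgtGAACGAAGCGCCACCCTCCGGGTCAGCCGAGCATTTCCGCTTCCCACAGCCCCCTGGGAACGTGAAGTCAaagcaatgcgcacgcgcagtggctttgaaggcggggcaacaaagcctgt
ZNF225-AS1: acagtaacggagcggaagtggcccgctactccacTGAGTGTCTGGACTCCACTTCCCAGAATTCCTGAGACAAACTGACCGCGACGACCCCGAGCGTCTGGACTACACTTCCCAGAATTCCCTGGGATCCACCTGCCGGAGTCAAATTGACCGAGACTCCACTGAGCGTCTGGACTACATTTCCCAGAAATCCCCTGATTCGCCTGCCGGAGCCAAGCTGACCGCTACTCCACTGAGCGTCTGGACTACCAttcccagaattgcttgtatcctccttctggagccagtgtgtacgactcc

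The other 3 placed members were those with the highest log2 changes in TNF plus apigenin against TNF, and their starts lay far from the sense start. The distance was 53576 bases for HIF1A-AS2, 271023 for DLGAP1-AS2 and 3222 for IDI2-AS1, downstream of the sense start in all 3. Their windows are chr14:61749040-61749339 on the minus strand for HIF1A-AS2, chr10:1022387-1022686 on the plus strand for IDI2-AS1 and chr18:3603487-3603786 on the plus strand for DLGAP1-AS2. Capitals mark the bases from the start of the antisense RNA on.
HIF1A-AS2: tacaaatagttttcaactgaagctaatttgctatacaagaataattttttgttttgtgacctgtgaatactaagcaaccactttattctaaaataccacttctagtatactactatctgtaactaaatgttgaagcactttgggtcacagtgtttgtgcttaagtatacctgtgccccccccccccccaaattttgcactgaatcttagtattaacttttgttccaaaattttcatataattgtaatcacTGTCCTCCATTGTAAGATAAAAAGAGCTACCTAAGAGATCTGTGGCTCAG
IDI2-AS1: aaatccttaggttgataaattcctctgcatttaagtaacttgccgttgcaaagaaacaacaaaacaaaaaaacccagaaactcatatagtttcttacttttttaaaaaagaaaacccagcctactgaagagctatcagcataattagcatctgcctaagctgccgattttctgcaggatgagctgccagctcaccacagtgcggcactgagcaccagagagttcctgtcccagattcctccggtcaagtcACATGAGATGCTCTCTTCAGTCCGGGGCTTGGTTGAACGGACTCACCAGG
DLGAP1-AS2: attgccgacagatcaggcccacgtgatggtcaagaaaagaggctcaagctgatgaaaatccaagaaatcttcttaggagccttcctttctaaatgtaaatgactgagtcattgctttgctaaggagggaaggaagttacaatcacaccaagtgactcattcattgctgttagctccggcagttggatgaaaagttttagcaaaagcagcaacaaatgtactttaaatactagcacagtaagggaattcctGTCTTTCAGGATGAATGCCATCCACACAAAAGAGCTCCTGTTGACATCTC

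Windows near a sense start held 58.7% G and C for RBM26-AS1 and 68.0% for TRIM52-AS1. They held 62.0% for ZNF674-AS1 and 56.3% for ZNF225-AS1. The others had 34.7% for HIF1A-AS2, 44.7% for IDI2-AS1 and 42.0% for DLGAP1-AS2. The median was 65.0% over the 145 members with a window and 58.3% over all 27305 windows. Of the windows near a sense start, only that of TRIM52-AS1 lay above the member median, and that of ZNF225-AS1 lay below both medians. The windows of HIF1A-AS2, IDI2-AS1 and DLGAP1-AS2 also lay below both. Short motifs were searched on both strands. The aryl hydrocarbon receptor core GCGTG occurred in 43.4% of member windows and 36.3% of all windows, with 2 matches in RBM26-AS1, 1 each in TRIM52-AS1 and ZNF674-AS1 and none in the other 4. The core ACGTG bound by hypoxia-inducible factors occurred in 22.1% of member windows and 21.6% of all windows. It had 2 matches in DLGAP1-AS2, which are both strands of a single palindromic run, 2 in TRIM52-AS1 and 1 in ZNF674-AS1. The windows of HIF1A-AS2, IDI2-AS1 and ZNF225-AS1 held none of the 5 motifs searched. The ATF4-type element TGATGNAA occurred in 1.4% of member windows and 3.7% of all windows and had 1 match, in DLGAP1-AS2. The GC box GGGCGG (51.7% of member windows, 44.6% of all) had 1 match, in ZNF674-AS1, and CCAAT (31.7% and 35.7%) had none in the 7 windows. A match to such short letters describes the window and shows no binding.

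The comparison of TNF plus apigenin with TNF asks what apigenin changed in cells that also received the cytokine. Here 6 members rose and none fell. They were HIF1A-AS2, IDI2-AS1, DLGAP1-AS2, ZNF225-AS1, TRIM52-AS1 and ZNF674-AS1, at 3.41% of the 176 members. Among all 15865 genes tested, 0.384% rose and 0.681% fell in this comparison (limma, Benjamini-Hochberg adjusted p under 0.05 over all genes tested, as throughout). ZNF225-AS1 passed the minimum mean only through the TNF plus apigenin arrays, so the count of 6 includes an RNA that the choice of members favoured. When the antisense RNAs were chosen instead by a mean of at least 3 over the 5 apigenin and control arrays, which this comparison does not use, 175 were kept and 5 rose (2.86%), all of the above except ZNF225-AS1, where 0.389% of the 11820 genes chosen in the same way rose. In a bulk sample, more cells making an RNA and more of it per cell cannot be told apart.

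HIF1A-AS2 had 6.74, 7.15 and 6.31 on the log2 scale in TNF plus apigenin arrays, 4.38 and 5.78 in apigenin arrays, 3.84, 4.81 and 5.32 in TNF arrays and 4.46, 4.34 and 4.69 in control arrays. All 3 TNF plus apigenin arrays lay above every other array, and apigenin 2 was the next highest. The log2 change against TNF was 2.08 ± 0.37 (SE), a 4.22-fold rise (limma, adjusted p = 0.0114). Without array TNF plus apigenin 2 it was 1.87 with an adjusted p of 0.0669.

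IDI2-AS1 lies opposite IDI2, which encodes an isopentenyl diphosphate isomerase of isoprenoid synthesis. It had 5.02, 4.83 and 4.32 in TNF plus apigenin arrays, 3.86 and 4.30 in apigenin arrays, 3.22, 3.04 and 3.28 in TNF arrays and 2.79, 3.00 and 3.57 in control arrays. The groups with apigenin lay above the groups without it with no overlap. Its log2 change against TNF was 1.54 ± 0.23, or 2.91-fold (limma, adjusted p = 0.00383).

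DLGAP1-AS2 lies opposite DLGAP1, a scaffold protein of the postsynaptic density. It had 7.78, 7.46 and 7.05 in TNF plus apigenin arrays, 6.80 and 7.17 in apigenin arrays, 5.83, 6.16 and 5.71 in TNF arrays and 6.0, 6.06 and 6.27 in control arrays. Again every array with apigenin exceeded every array without it. The log2 change against TNF was 1.53 ± 0.21, or 2.89-fold (limma, adjusted p = 0.00214).

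**Figure D1:**
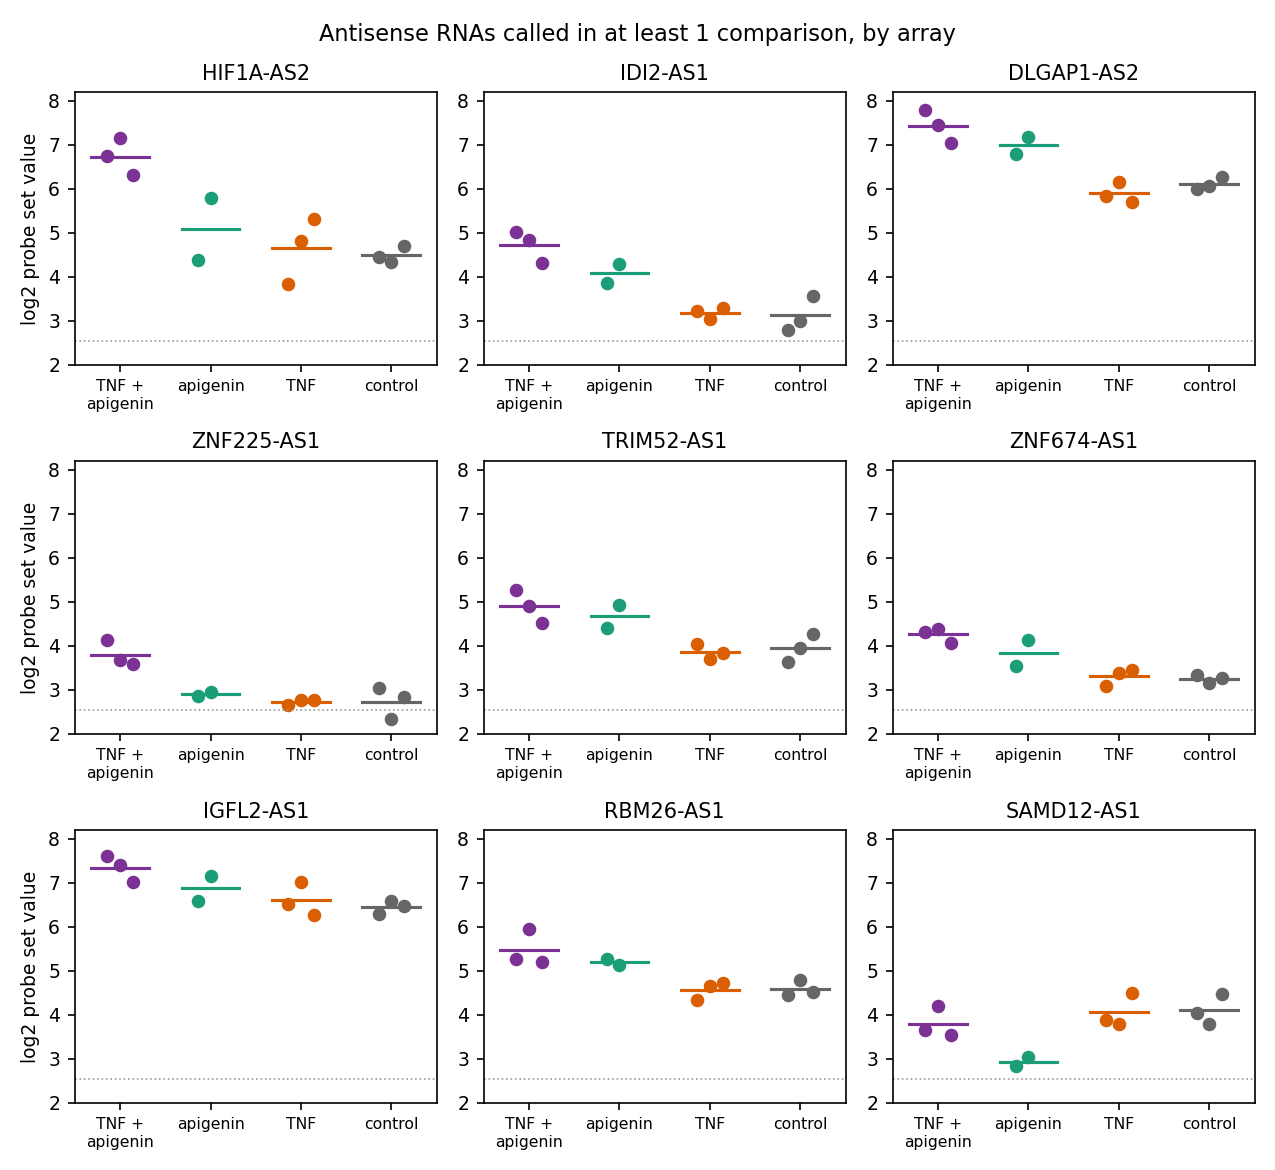
Log2 probe set values (vertical axis) of the 9 antisense RNAs called in at least 1 comparison, with 1 point per array, bars at group means and groups in the order TNF plus apigenin, apigenin, TNF and control. The dotted line is the median of all probe set means (2.53), and HIF1A-AS2 lies at 6.31 to 7.15 in TNF plus apigenin arrays and at 3.84 to 5.32 in TNF arrays.

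The other 3 that rose start within 1000 bases of their sense gene, as printed above. TRIM52-AS1, opposite the start of a RING finger protein gene, had 5.27, 4.90 and 4.52 in TNF plus apigenin arrays, 4.41 and 4.93 in apigenin arrays, 4.05, 3.71 and 3.83 in TNF arrays and 3.64, 3.94 and 4.27 in control arrays. Arrays with apigenin all lay above those without it, and the change against TNF was 1.03 ± 0.23, or 2.04-fold (limma, adjusted p = 0.0404). ZNF674-AS1, whose partner encodes a zinc finger protein, had 4.32, 4.38 and 4.07 in TNF plus apigenin arrays, 3.53 and 4.14 in apigenin arrays, 3.09, 3.38 and 3.45 in TNF arrays and 3.34, 3.16 and 3.26 in control arrays. It rose by 0.945 ± 0.19 against TNF, or 1.93-fold (limma, adjusted p = 0.0234). ZNF225-AS1, also next to a zinc finger gene, had 4.13, 3.67 and 3.58 in TNF plus apigenin arrays, 2.86 and 2.94 in apigenin arrays, 2.65, 2.77 and 2.76 in TNF arrays and 3.03, 2.33 and 2.84 in control arrays. Only the TNF plus apigenin arrays stood above 3.03. The other values are near 2.53, the median of all probe set means, which stands for background here and was not measured as such. The log2 change of ZNF225-AS1, 1.07 ± 0.20, is therefore given without a fold (limma, adjusted p = 0.0183). Its mean over all arrays was 3.05. The calls of these 3 depended on single arrays. Leaving out TNF 1, TNF 2, TNF plus apigenin 1 or TNF plus apigenin 2 ended the call of each, with changes of 0.84 to 1.13 and adjusted p of 0.0529 to 0.19, and for TRIM52-AS1 so did leaving out TNF 3 (1.01, adjusted p = 0.112).

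The members as a group also lay higher in this comparison. Their median log2 change was 0.15, against 0.02 over all genes tested, and 119 of 176 (67.6%) had a change above 0, against 52.3% of all genes. Among the 175 chosen on the apigenin and control arrays the median was 0.14 and 67.4% were above 0, against 0.03 and 54.0% of all genes chosen so. At an unadjusted p under 0.05, 31 members were higher and 2 lower, where 5.93% of all genes were higher and 5.19% lower. In 35 members (19.9%) all TNF plus apigenin arrays lay above all TNF arrays, against 8.62% of all genes, and in 5 (2.84%) all lay below, against 7.05%. These shares are descriptions with no test, since the members were chosen with results of these arrays known. The mean level of the members had a median of 3.58 and that of all genes tested 4.17, on probe sets of differing brightness, and the part of level in these shares was not tested. Of the endothelial markers, CDH5 fell in this comparison (-1.25 ± 0.19, limma, adjusted p = 0.00451), and the mean of all 4 ran from 2.63 to 2.70 in TNF plus apigenin arrays and from 2.99 to 3.35 in TNF arrays, with no overlap. Their part in the result was not tested.

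**Figure D2:**
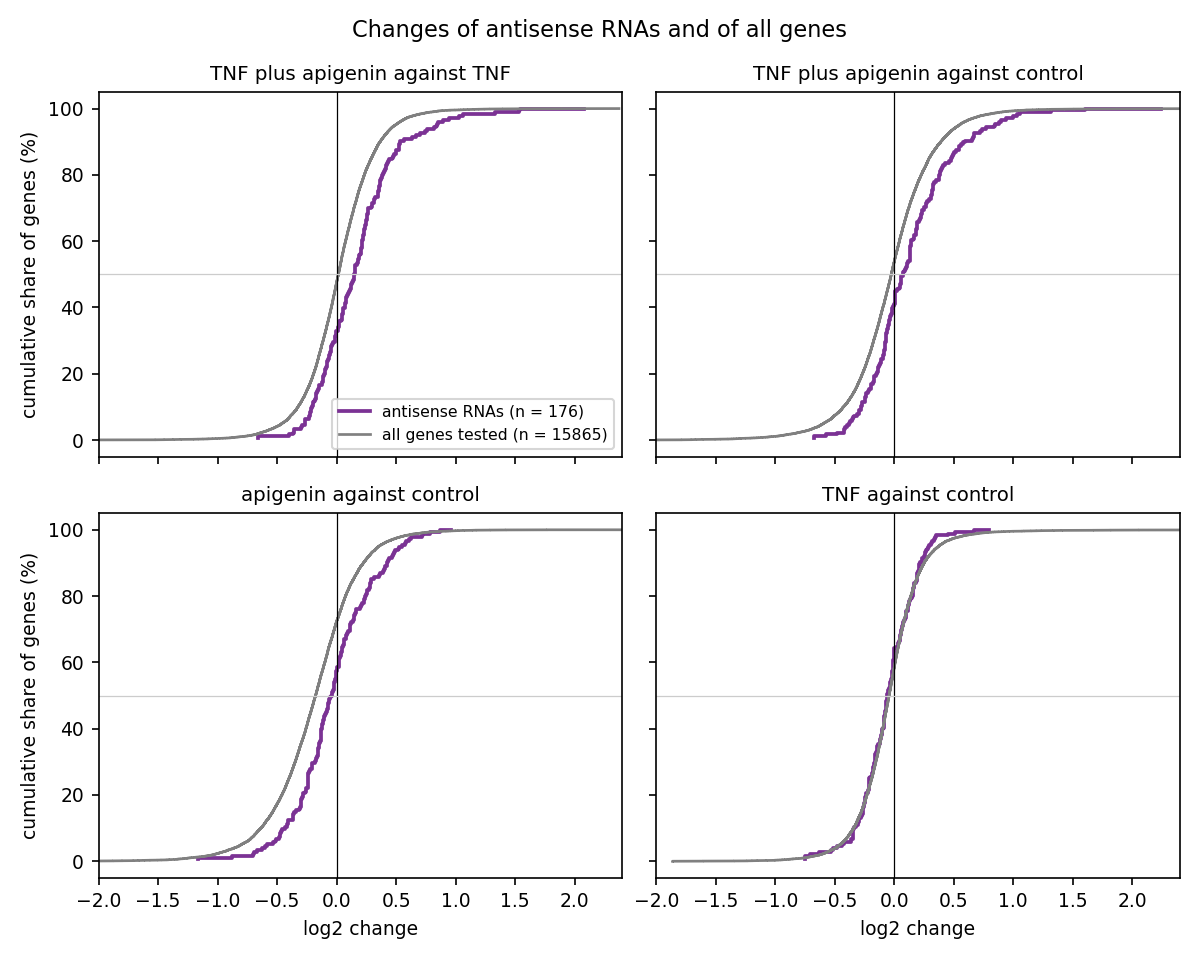
Cumulative share of genes in percent (vertical axis) at or below a given log2 change (horizontal axis, drawn from -2 to 2.4) for the 176 antisense RNAs and for all 15865 genes tested in 4 comparisons. In TNF plus apigenin against TNF the antisense curve lies to the right, with a median of 0.15 against 0.02, and in TNF against control the curves lie together, with medians of -0.05 and -0.04.

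Among the members that were not called, FOXD2-AS1, whose partner encodes a forkhead factor, had the largest change. It had 6.26, 6.13 and 5.36 in TNF plus apigenin arrays, 4.65 and 6.58 in apigenin arrays, 4.40, 4.71 and 4.63 in TNF arrays and 5.28, 4.38 and 5.01 in control arrays. The TNF plus apigenin and TNF arrays did not overlap, the 2 apigenin arrays had an SD of 1.36, and the change of 1.33 ± 0.38 was not called (limma, adjusted p = 0.139). Leaving out apigenin 1 or apigenin 2, which do not enter this difference but enter the shared spread, gave the same change with an adjusted p of 0.0251. The 4 lowest changes were those of CACNA1C-AS2 at -0.66 (adjusted p = 0.147), MTUS2-AS1 at -0.40, EXOC3-AS1 at -0.37 and ATP2A1-AS1 at -0.355, and none of these was called.

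Against control, TNF plus apigenin gave 8 members that rose and none that fell (4.55%), where 1.04% of all genes rose and 1.78% fell. ZNF225-AS1 is again among them, and of 169 antisense RNAs with a mean of at least 3 over the 5 apigenin and TNF arrays the other 7 rose (4.14%), where 1.17% of all genes chosen so rose. Among the epithelial markers KRT19, a keratin, fell in this comparison (-0.82 ± 0.165, limma, adjusted p = 0.0133), and the mean of the 7 ran from 7.02 to 7.24 in TNF plus apigenin arrays and from 7.38 to 7.55 in control arrays. Their part in the result was not tested. This comparison shares the TNF plus apigenin arrays with the one above, so its values are set beside it and not counted as further support. HIF1A-AS2 was 2.24 ± 0.37 above control, or 4.73-fold (limma, adjusted p = 0.0035), IDI2-AS1 1.6 ± 0.23 (adjusted p = 0.00149), DLGAP1-AS2 1.32 ± 0.21 (adjusted p = 0.00265), ZNF225-AS1 1.06 ± 0.20 (adjusted p = 0.0106), ZNF674-AS1 1.0 ± 0.19 (adjusted p = 0.00985) and TRIM52-AS1 0.94 ± 0.23 (adjusted p = 0.0387). The other 2 were RBM26-AS1 and IGFL2-AS1.

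RBM26-AS1 starts 54 bases from RBM26, which encodes an RNA-binding protein. It had 5.26, 5.94 and 5.21 in TNF plus apigenin arrays, 5.27 and 5.13 in apigenin arrays, 4.33, 4.66 and 4.73 in TNF arrays and 4.45, 4.80 and 4.52 in control arrays. Arrays with apigenin lay above arrays without it, by 0.88 ± 0.21 for TNF plus apigenin against control (limma, adjusted p = 0.0361) and by 0.90 ± 0.21 for TNF plus apigenin against TNF, which was not called (adjusted p = 0.0592). IGFL2-AS1, named after a gene of the insulin growth factor-like family but not placed against it, had 7.62, 7.41 and 7.01 in TNF plus apigenin arrays, 6.59 and 7.16 in apigenin arrays, 6.52, 7.02 and 6.27 in TNF arrays and 6.28, 6.59 and 6.48 in control arrays. TNF plus apigenin 3 and TNF 2 were nearly level, and the change was 0.90 ± 0.23 against control, or 1.86-fold (limma, adjusted p = 0.0497), and 0.74 ± 0.23 against TNF, which was not called (adjusted p = 0.18).

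Several of these calls rested on single arrays. Leaving out control 1, control 3 or TNF plus apigenin 2 ended the call of RBM26-AS1 (0.65 to 0.85, adjusted p of 0.112 to 0.167). Leaving out any control array, TNF 1, TNF plus apigenin 1 or TNF plus apigenin 2 ended that of IGFL2-AS1 (0.76 to 0.97, adjusted p of 0.0607 to 0.187). Leaving out control 1, control 2, TNF 2, TNF plus apigenin 1 or TNF plus apigenin 2 ended that of TRIM52-AS1 (0.75 to 0.94, adjusted p of 0.0503 to 0.177), and leaving out TNF plus apigenin 2 ended that of ZNF674-AS1 (0.94, adjusted p = 0.0582).

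Apigenin alone, against control, asks what the flavone changed without the cytokine, and it rests on 2 apigenin arrays. Here 1 member fell and none rose (0.568%), where 3.44% of all genes fell and 0.221% rose. At an unadjusted p under 0.05, 9 members were higher and 12 lower, where 2.01% of all genes were higher and 17.5% lower. The median change of the members was -0.04, against -0.18 over all genes, and 75 members (42.6%) had a change above 0, against 27.6% of all genes. All genes shifted downwards by that median, with the low array apigenin 1 in the group, and how much of it belongs to the arrays and how much to the cells cannot be told apart. Of the 4 endothelial markers, VWF and TEK lay near background in every group, while KDR and CDH5 were called lower in apigenin than in control arrays, and the mean of all 4 ran from 2.30 to 2.37 in apigenin arrays and from 2.81 to 2.96 in control arrays. Their part in the result was not tested.

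SAMD12-AS1, named after a gene for a protein with a sterile alpha motif but not placed against it, was the member that fell. It had 2.84 and 3.03 in apigenin arrays and 4.03, 3.80 and 4.48 in control arrays, and 3.66, 4.19 and 3.53 in TNF plus apigenin arrays and 3.88, 3.80 and 4.49 in TNF arrays. Both apigenin arrays lay below all other arrays. The log2 change of apigenin against control was -1.17 ± 0.265 (limma, adjusted p = 0.0262), and that of TNF plus apigenin against TNF was -0.26 ± 0.24 (adjusted p = 0.783). Since the apigenin values are near 2.53, the median of all probe set means that stands for background, no fold is given. The call was lost without apigenin 1 (-1.07, adjusted p = 0.201), control 1 (-1.20, adjusted p = 0.0764) or control 3 (-0.98, adjusted p = 0.104).

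The highest changes with apigenin alone were those of IDI2-AS1 at 0.96 ± 0.26 (limma, adjusted p = 0.0548) and DLGAP1-AS2 at 0.87 ± 0.23 (adjusted p = 0.0527), both just short of the threshold. PSMG3-AS1, named after a proteasome assembly gene, had 3.04 and 3.81 in apigenin arrays and 2.68, 2.42 and 2.83 in control arrays, a change of 0.78 ± 0.245 (adjusted p = 0.0922), and FOXD2-AS1 changed by 0.72 ± 0.43 (adjusted p = 0.377). The 2 apigenin arrays differed for both: without apigenin 2 the change of FOXD2-AS1 was -0.24, and without apigenin 1 it was 1.69. After SAMD12-AS1, the lowest were TONSL-AS1, named after a gene of replication fork repair, at -0.88 ± 0.25 (adjusted p = 0.0656), PRRT3-AS1 at -0.71 ± 0.24 (adjusted p = 0.121) and NPPA-AS1, named after the atrial natriuretic peptide gene, at -0.70 ± 0.25 (adjusted p = 0.136). TONSL-AS1 had 3.77 and 3.72 in apigenin arrays and 4.82, 4.08 and 4.97 in control arrays, with no overlap, and was called without control 2 (-1.15, adjusted p = 0.0108).

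**Figure D3:**
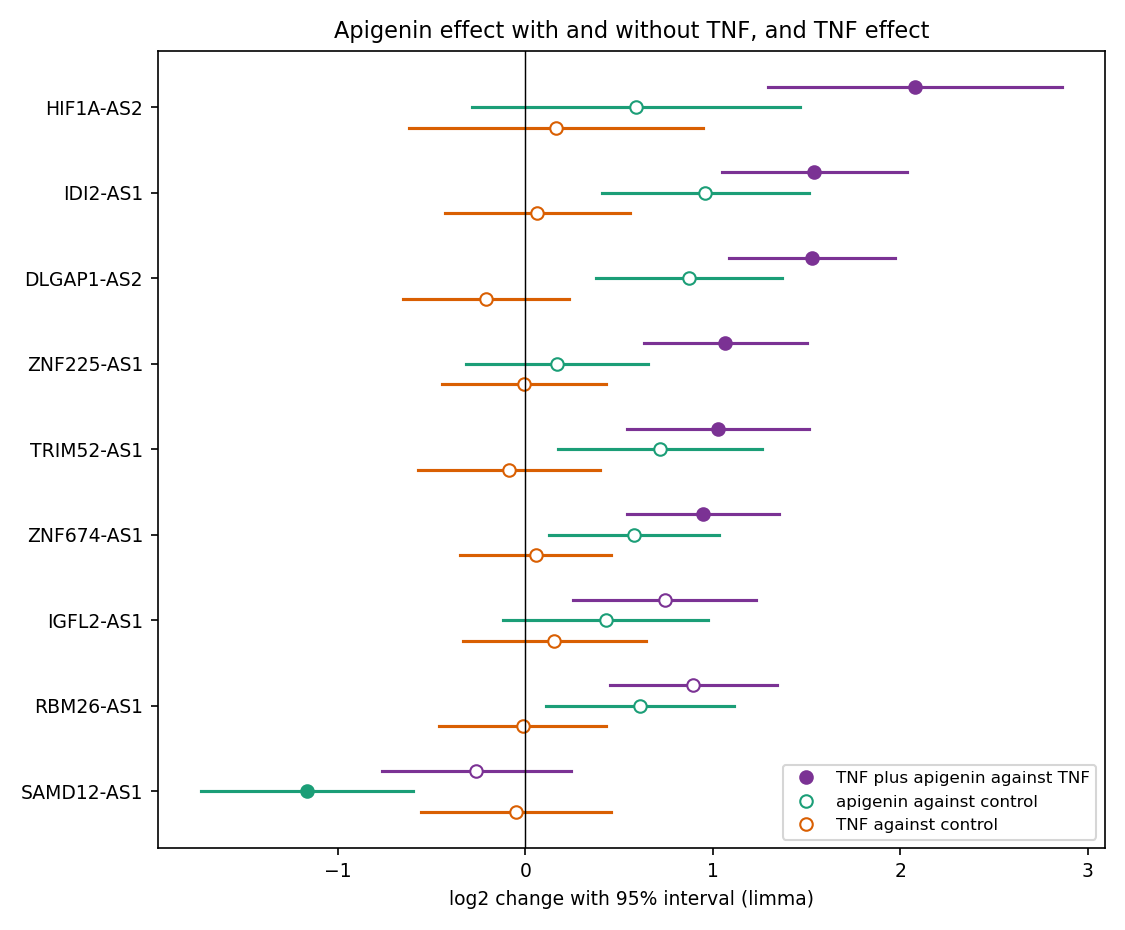
Log2 change with its 95% interval from limma (horizontal axis) for the 9 called antisense RNAs in TNF plus apigenin against TNF, apigenin against control and TNF against control, with filled points where the adjusted p is under 0.05. For HIF1A-AS2 the interval is 1.29 to 2.86 in TNF plus apigenin against TNF and -0.29 to 1.46 in apigenin against control, and every TNF interval includes 0.

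Whether apigenin acted differently with and without TNF was tested by the interaction, the apigenin effect with TNF minus the apigenin effect without it. No member was called (0.0126% of all genes were called in each direction), and the lowest adjusted p among members was 0.505 (limma), while at an unadjusted p under 0.05, 14 members were higher and 2 lower, where 7.14% of all genes were higher and 1.02% lower. The interaction was 1.49 for HIF1A-AS2 (95% interval 0.32 to 2.67, adjusted p = 0.552), 0.90 for ZNF225-AS1 (0.25 to 1.55, adjusted p = 0.531), 0.905 for SAMD12-AS1 (0.145 to 1.66, adjusted p = 0.565), 0.66 for DLGAP1-AS2 (-0.01 to 1.32, adjusted p = 0.613) and 0.58 for IDI2-AS1 (-0.16 to 1.32, adjusted p = 0.639). The median interaction over all genes was 0.23 and over members 0.21. A call in TNF plus apigenin against TNF and none in apigenin against control is therefore no evidence of a difference between them.

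TNF alone, against control, called no member in either direction by limma, where 0.473% of all genes rose and 0.227% fell. At an unadjusted p under 0.05, 3 members were higher and 8 lower, where 2.82% of all genes were higher and 4.58% lower, and the lowest adjusted p was 0.0983. CDH5 rose here (0.92 ± 0.19, adjusted p = 0.0448), and the mean of the 4 endothelial markers ran from 2.99 to 3.35 in TNF arrays and from 2.81 to 2.96 in control arrays, a difference whose part in the result was not tested. The lowest adjusted p among members belonged to CACNA1C-AS2, opposite the gene for a pore subunit of L-type calcium channels. It had 4.43, 3.91 and 4.14 in TNF arrays, 3.39, 3.13 and 3.58 in control arrays, 3.39, 3.71 and 3.39 in TNF plus apigenin arrays and 3.21 and 3.52 in apigenin arrays. The TNF arrays lay above all others, with a change of 0.79 ± 0.19 against control, and after quantile normalization it was called in TNF against control (0.84, adjusted p = 0.0282) and in TNF plus apigenin against TNF (-0.72, adjusted p = 0.0353). EGFR-AS1, named after the epidermal growth factor receptor gene, followed at 0.67 ± 0.30 (adjusted p = 0.635), with 4.73, 4.42 and 4.14 in TNF arrays and 4.12, 3.07 and 4.09 in control arrays. PSMD6-AS2 at 0.52 (adjusted p = 0.682) and ATP6V0E2-AS1 at 0.45 (adjusted p = 0.374) were the next highest. At the low end were ATF7-AS1 at -0.75 ± 0.21 (adjusted p = 0.211), WEE2-AS1 at -0.75 ± 0.31 (adjusted p = 0.568), DDC-AS1 at -0.71 ± 0.28 (adjusted p = 0.52) and LYRM4-AS1 at -0.63 ± 0.18 (adjusted p = 0.216). The dimmer probe set of WEE2-AS1, with a mean of 2.87, changed by 0.02 and so disagrees with the one used. ATF7-AS1, beside a CREB-family factor gene, had 2.62, 3.27 and 3.27 in TNF arrays and 3.60, 4.02 and 3.80 in control arrays, with no overlap. In LYRM4-AS1, beside a gene of iron-sulphur cluster assembly, the values were 3.84, 4.27 and 4.10 in TNF arrays and 4.74, 4.65 and 4.73 in control arrays, also apart.

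TNF plus apigenin against apigenin called no member by limma, where 0.529% of all genes rose and 0.0441% fell, with 25 members higher and 3 lower at an unadjusted p under 0.05, where 14.1% of all genes were higher and 1.64% lower. The lowest adjusted p was 0.0826, for HIF1A-AS2 at 1.65 ± 0.41, followed by ZNF225-AS1 at 0.89 ± 0.23 (adjusted p = 0.0934), and SAMD12-AS1 changed by 0.86 ± 0.265 (adjusted p = 0.155). Over the 4 groups, the highest group mean was that of TNF plus apigenin in 74 members (42.0%, against 30.9% of all genes). The lowest was that of apigenin in 60 members (34.1%, against 52.0% of all genes) and that of TNF in 58 (33.0%, against 20.5%).

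Set beside their sense genes, the called antisense RNAs moved without a call of the partner. HIF1A, the oxygen-regulated subunit of hypoxia-inducible factor, had 8.78, 9.04 and 8.59 in TNF plus apigenin arrays and 8.65, 8.80 and 8.74 in TNF arrays. These overlap, with a log2 change of 0.07 ± 0.18 (95% interval -0.31 to 0.46; limma, adjusted p = 0.94), beside 2.08 for HIF1A-AS2. TRIM52 had 4.24, 4.06 and 3.89 in TNF plus apigenin arrays and 3.76, 3.71 and 3.87 in TNF arrays, a change of 0.28 ± 0.17 (adjusted p = 0.591), and in apigenin against control it changed by -0.47 ± 0.19 (adjusted p = 0.178), beside 0.72 for TRIM52-AS1. For ZNF674 the changes were 0.20 ± 0.26 in TNF plus apigenin against TNF (adjusted p = 0.862) and -0.57 ± 0.29 in apigenin against control (adjusted p = 0.296), for ZNF225 0.36 ± 0.30 and -0.32 ± 0.33, and for RBM26 0.05 ± 0.21 and -0.04 ± 0.23. IGFL2 lay near background and changed by -0.10 ± 0.24 in TNF plus apigenin against control. SAMD12 changed by -0.48 ± 0.21 in apigenin against control (adjusted p = 0.219), the same direction as SAMD12-AS1. IDI2 and DLGAP1 were not tested. None of these intervals shows that the sense gene stayed level, and the probe sequences were not analysed here, so whether a probe set also catches RNA of the other strand was not tested.

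Some sense genes changed where the antisense RNA was not called. In apigenin against control 5 of 146 sense genes fell and none rose, a share near the 3.44% of all genes that fell. The falls are therefore no particular feature of sense genes. The 4 with a fall of at least 1 were ARRDC1, an arrestin-domain protein of vesicle budding, at -1.09 ± 0.205 (limma, adjusted p = 0.0103), TIAM1, an activator of the GTPase RAC1, at -1.06 ± 0.22 (adjusted p = 0.0176), PCGF3, a Polycomb group protein, at -1.03 ± 0.25 (adjusted p = 0.0325), and TMPO, a protein of the nuclear lamina, at -1.03 ± 0.20 (adjusted p = 0.0131). Their antisense partners changed by 0.36 for ARRDC1-AS1, -0.30 for TIAM1-AS1, 0.09 for PCGF3-AS1 and -0.09 for TMPO-AS1, none of them called. TMPO had 5.58 and 6.03 in apigenin arrays and 6.88, 6.84 and 6.79 in control arrays, while ARRDC1 had 3.71 and 4.15 in apigenin arrays and 5.24, 4.96 and 4.86 in control arrays, so neither gene overlapped. All 4 calls were lost without apigenin 1 (-0.72 to -0.87, adjusted p of 0.128 to 0.326) and without control 1 (-0.95 to -1.02, adjusted p of 0.0566 to 0.108), and those of TIAM1 and PCGF3 also without control 3 (-1.05 and -1.01, adjusted p of 0.0635 and 0.101). TIAM1 was also lower in TNF plus apigenin than in control arrays, by -0.82 ± 0.20 (adjusted p = 0.0395), beside -0.03 for TIAM1-AS1. That call was lost in 7 of the 11 fits that leave out an array.

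Over the 146 pairs with both genes tested, no pair had both called in any comparison. Antisense RNA and sense gene changed with the same sign in 77 pairs (52.7%) in TNF plus apigenin against TNF, 71 (48.6%) in TNF plus apigenin against control, 70 (47.9%) in apigenin against control and 79 (54.1%) in TNF against control. The share was higher in TNF plus apigenin against apigenin, at 93 pairs (63.7%) with a Pearson r of 0.29 between the changes, and in the interaction, at 94 (64.4%) with an r of 0.08. In both the medians of the antisense RNAs and of the sense genes lay above 0, at 0.14 and 0.17 against apigenin and at 0.23 and 0.22 in the interaction. By position, the pairs with starts within 1000 bases shared the sign in 28 of 41 (68.3%) in TNF plus apigenin against TNF, with a Pearson r of 0.39 between the changes. Pairs farther apart shared it in 33 of 69 (47.8%), with an r of -0.01. In apigenin against control the shares were 24 of 41 (58.5%) with an r of 0.05 for close starts and 28 of 69 (40.6%) with an r of -0.01 for distant ones. In TNF against control they were 22 of 41 (53.7%) and 45 of 69 (65.2%). In TNF plus apigenin against control close and distant pairs hardly differed in sign, at 21 of 41 (51.2%) with an r of 0.35 and 34 of 69 (49.3%) with an r of 0.18. In TNF plus apigenin against apigenin the shares were 29 of 41 (70.7%) and 38 of 69 (55.1%), and in the interaction 28 of 41 (68.3%) and 44 of 69 (63.8%). The correlations run across pairs measured on the same arrays and describe these arrays only, and the difference between close and distant pairs was not tested. Distance alone set these classes, so not all close pairs run away from a shared promoter region. In ATP6V0E2-AS1, NDUFB2-AS1 and ZNF687-AS1, which are among the close ones, the antisense RNA runs towards the sense start.

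**Figure D4:**
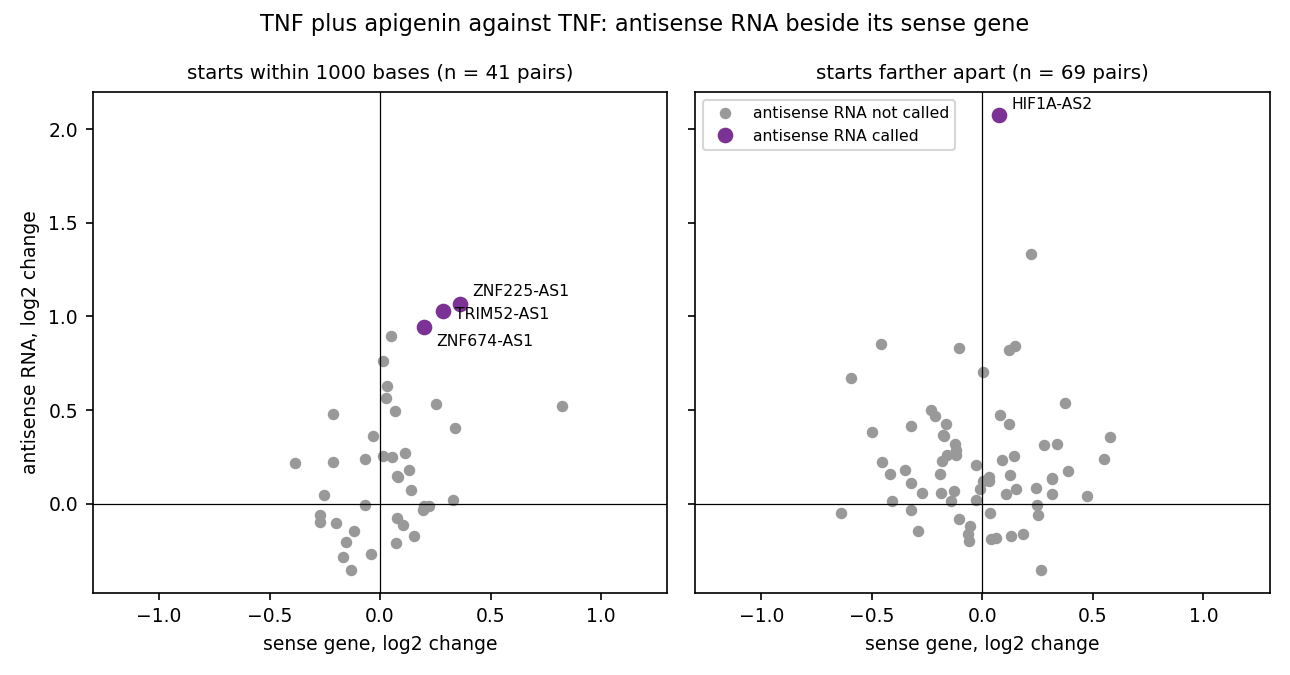
Log2 change of the antisense RNA (vertical axis) against that of its sense gene (horizontal axis) in TNF plus apigenin against TNF, with 1 point per pair, for 41 pairs with starts within 1000 bases and 69 pairs with starts farther apart. HIF1A-AS2 lies at 2.08 above a HIF1A change of 0.07, and the called antisense RNAs with close starts lie above sense changes of 0.20 to 0.36.

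Gene lists around antisense RNA were read for context. Of 14 genes listed for hypoxia and HIF1A, 11 were tested. HIF1A-AS2 alone rose in TNF plus apigenin against TNF, and HIF1A-AS2 and ADM, the vasodilator peptide adrenomedullin, rose in TNF plus apigenin against control (ADM 0.94 ± 0.18, limma, adjusted p = 0.00986). None of the 11 was called in apigenin or in TNF against control. VEGFA, EGLN1, EGLN3 and ANKRD37, targets of hypoxia-inducible factors, were not called in any comparison. In TNF plus apigenin against TNF the median change of this list was 0.07, against 0.02 over all genes. Of 37 genes listed from work on cancer cells, mostly antisense or other non-coding RNAs but including the protein-coding WRAP53, 20 were tested, and DLGAP1-AS2 was the only one called, in TNF plus apigenin against TNF and against control, with a list median of 0.03 and 0.01. AFAP1-AS1, named after a gene for an actin filament binding protein, had 7.75, 7.53 and 7.09 in TNF plus apigenin arrays, 7.07 and 7.37 in apigenin arrays, 7.37, 7.24 and 7.08 in TNF arrays and 7.65, 7.37 and 7.33 in control arrays, with overlap throughout. Of 18 antisense RNAs of the HOX clusters, 8 were tested and none was called in any comparison, and neither was any of 9 tested beside immune or cytokine genes, whose median TNF change was 0.19 against -0.04 over all genes. Nor were any of the 18 tested genes of the nuclear RNA exosome and its adaptors or of the 10 of Polycomb repressive complex 2 called. Exosome genes had a median change of 0.18 in TNF plus apigenin against TNF. Among 15 genes of double-stranded RNA editing and processing, AGO4, an Argonaute protein of small RNA pathways, fell in apigenin against control (-1.19 ± 0.22, limma, adjusted p = 0.0098) and in TNF plus apigenin against control (-0.78 ± 0.20, adjusted p = 0.0467), and no other gene of the list was called.

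For the called member with the smallest adjusted p in a comparison, the genes with the most similar pattern were taken by Pearson correlation over the 11 arrays, which is a description over arrays that share the treatments. DLGAP1-AS2 was most like APRG1 (r = 0.969), TMEM209 (0.969) and CTH (0.956), an enzyme of cysteine synthesis whose means were 6.33 in TNF plus apigenin, 6.21 in apigenin, 5.32 in TNF and 5.46 in control arrays. For IDI2-AS1 they were C16orf46 (0.97), TRIM52-AS1 (0.965) and POFUT3 (0.964), and TRIM52-AS1 is itself a member called in the same direction. SAMD12-AS1 was most like FDX1 (0.962), an electron donor of mitochondrial steroid synthesis, UPRT (0.951) and PHTF2 (0.946).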

How the data were processed

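The values analysed were the deposited log2 probe set values of 53617 probe sets on 11 arrays, which per the submitters' processing notes came from Affymetrix Expression Console. The version, algorithm, build and any normalization across arrays were not given in the sources used here. That the logarithm has base 2 was taken from the range of values (0.38 to 12.31). The number of arrays limits the precision.

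The array annotation gave 1 gene symbol for 23871 probe sets, and 62 that list an antisense symbol among several genes were left out. The probe set with the highest mean stood for each of 22395 genes. Testing required 2 or more arrays of any group to reach 2.53, the median over probe set means, which left 15865 genes and all 176 members. All 176 matched RefSeq GRCh38.p14, which supplied names, starts and promoter windows, and 5 have another current symbol.

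With limma 3.58.1 in R 4.3.3 (lmFit, eBayes) the 4 group means were estimated together from the 11 arrays, with 7 residual degrees of freedom. Two-sided p-values were adjusted with Benjamini-Hochberg over all genes tested and called under 0.05. Errors of log2 changes are moderated standard errors. The values were not rescaled, and the fit was tested on simulated data. Members, gene lists, comparisons and alternatives were chosen with earlier results of these data known. Named were the called members, the 4 highest and 4 lowest changes in 3 comparisons (apigenin against control, TNF against control, and both agents against TNF), the 5 highest means, those next to the threshold, and the sense genes of called or extreme members or with a called change of at least 1. Residual correlations of same-numbered arrays ran from -0.24 to 0.275 (median 0.023, 15 pairs). Those of arrays with different numbers ran from -0.392 to 0.193 (median -0.018, 30 pairs). The ranges overlap widely, though the highest value was of a same-numbered pair. Replicate numbers were not taken to pair arrays in the main fit, and a fit with them as a block is given below.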

Additional observations from a re-analysis of the deposited data

How the results depend on the processing

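No called change turned its sign under any alternative run. Among changes that were not called, FOXD2-AS1 in apigenin against control (0.72) was -0.24 without apigenin 2, and WEE2-AS1 in TNF against control (-0.75) was 0.02 with the dimmer probe set of that gene. The count of members called in apigenin against control was 1 and became 5 (4 higher, 1 lower) after quantile normalization, 3 (2 higher, 1 lower) with each array shifted to a common median, 4 with the stricter filter (at least 3 arrays at 4 or more, 69 members tested), and 0 with array weights, without control 2 and apigenin 1 together, or with only these groups in the fit. Over all genes tested, 3.66% were called in apigenin against control, 3.76% after quantile normalization, 4.6% with the common median, 7.96% with the stricter filter, and 1.3%, 0.75% and 0.649% in the last 3. In TNF plus apigenin against TNF the 6 members called made 3.41%, against 1.07% of all genes. The 6 became 9 after quantile normalization (5.11%, against 3.22%) and 14 with array weights (7.95%, against 2.46%). After quantile normalization the calls over all genes thus went up more, in proportion, than those of the members. In TNF plus apigenin against control the 8 became 13 after quantile normalization (7.79% of all genes, against 2.82%), 5 with no filter (1.59%) and 15 with array weights (7.54%), so with those 2 the members' shares of 7.39% and 8.52% are near those of all genes. Choosing the antisense RNAs on the arrays outside a comparison was an alternative added after seeing the data. It gave 5 higher in TNF plus apigenin against TNF (2.86%, where 0.389% of all genes chosen so were higher). It gave 7 higher in TNF plus apigenin against control (4.14%, against 1.17%) and 1 lower in apigenin against control (0.575%, against 4.42%). It gave 0 in TNF plus apigenin against apigenin (0.675% of all genes chosen so higher, 0.0169% lower) and 0 for TNF alone (0.537% and 0.273%). It lost ZNF225-AS1 alone and added none, and it has no counterpart for the interaction, which uses all groups. TNF against control gave 1 after quantile normalization (1.17% of all genes, against 0.7%), and TNF plus apigenin against apigenin gave 1 with the stricter filter (1.57%, against 0.574%). The cause of these shifts was not tested, apart from the number of genes tested, which the filters change by construction.

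Counts are given for fits that leave out 1 array and keep at least 2 in every group, with the shares of members and of all genes. TNF plus apigenin against TNF gave 2 to 6 calls. It gave 2 without TNF plus apigenin 2 (1.14%, against 0.574%). Without TNF 1, TNF 2 or TNF plus apigenin 1 it gave 3 (1.7%, against 0.536% to 0.618%). TNF plus apigenin against control gave 4 to 9, with 4 without TNF plus apigenin 2 (2.27%, against 1.3%) and 5 without control 1 (2.84%, against 1.33%). Apigenin against control gave 0 to 3. It gave 0 without control 1 (0.996% of all genes) and 3 without TNF plus apigenin 3 (1.7%, against 3.91%). Without control 2 or TNF plus apigenin 1 it gave 2 (1.14%, against 4.01% and 3.13%). No member was called in TNF plus apigenin against apigenin (0.183% to 0.964% of all genes), TNF against control (0.378% to 0.624%) or the interaction (at most 0.0252%). Leaving out an apigenin array keeps 1 in that group, which is assumed to vary like the others. DLGAP1-AS2 and IDI2-AS1 kept their calls in TNF plus apigenin against TNF and against control in every alternative run, with changes of 1.35 to 1.72 and 1.39 to 1.75 against TNF when 1 array was left out. In apigenin against control both passed the threshold after quantile normalization (1.17 and 1.11), with a common median and with the stricter filter. HIF1A-AS2 kept its call against control throughout.

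With the replicate number as a block, the count was 5 in TNF plus apigenin against TNF (2.84%, where 1.1% of all genes were called). It was 7 in TNF plus apigenin against control (3.98%, against 2.74%) and 1 in apigenin against control (0.568%, against 4.49%). The other 3 comparisons gave 0, where 0.668% of all genes were called in TNF against control and 0.46% in TNF plus apigenin against apigenin. The block ended the calls of TRIM52-AS1 in both comparisons (adjusted p = 0.0692 and 0.0601, limma) and of no other member, and 6 of the 11 arrays correlated best with an array of their own number. Without a filter or with only the compared groups TRIM52-AS1 and RBM26-AS1 also fell short (adjusted p of 0.0508 to 0.0664), as did IGFL2-AS1 without a filter (0.0714) and SAMD12-AS1 with only its groups (0.0736). Low signal limits these values: 128 of the 176 members have a mean under 4, close to 2.53, the median of all probe set means that stands for background. Changes can be compressed at such levels, which was not tested here.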

Other observations

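Of the 649 antisense RNAs with a mean below 3, 235 were tested, and 5 were called in at least 1 comparison, most of them close to background. Among all genes tested, 1.07% were called in TNF plus apigenin against TNF, 2.82% in TNF plus apigenin against control and 3.66% in apigenin against control. The calls below are therefore listed as a description and not as a result about this set. LHFPL3-AS2 had 4.28, 3.95 and 3.62 in TNF plus apigenin arrays, 2.56 and 4.03 in apigenin arrays, 1.90, 2.53 and 2.24 in TNF arrays and 1.98, 2.39 and 2.50 in control arrays. It was higher in TNF plus apigenin than in TNF arrays by 1.73 ± 0.31 on the log2 scale (limma, adjusted p = 0.0115) and than in control arrays by 1.66 ± 0.31 (adjusted p = 0.0091), and the 2 apigenin arrays differed widely. SCAMP1-AS1 was higher in TNF plus apigenin than in TNF arrays by 0.91 ± 0.18 (adjusted p = 0.0245), with 2.86, 2.94 and 3.01 in TNF plus apigenin arrays and 1.83, 1.94 and 2.31 in TNF arrays. Against control, ZNF143-AS1 was higher in TNF plus apigenin by 0.93 ± 0.19 (adjusted p = 0.0131) and UFL1-AS1 by 0.81 ± 0.20 (adjusted p = 0.0456). FAM13A-AS1 was lower in apigenin than in control arrays by 1.12 on the log2 scale (adjusted p = 0.0465), with 1.55 and 2.25 in apigenin arrays and 2.89, 3.25 and 2.93 in control arrays. No fold is given for these, since at least 1 of their groups lies near the background of 2.53.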
